A study of Mus musculus with 4 samples.

Results

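The genes examined were the cyclins and kinases that carry a cell through G1: the D-type cyclins Ccnd1, Ccnd2 and Ccnd3, the E-type cyclins Ccne1 and Ccne2, the cyclin-dependent kinases Cdk2, Cdk4 and Cdk6, and the phosphatase gene Cdc25a. They were found as the non-control probes annotated with 1 of these symbols, which gave 9 genes read by 17 of the 41174 probes (27745 gene names) on the array. RNA came from mouse embryonic fibroblasts (MEFs) of strain C57BL/6J whose genotype was labelled Lats2-/- (KO) or Lats2+/+ (WT), with no other allele or agent given. The Lats2 protein is a Hippo pathway kinase that keeps the coactivators YAP and TAZ in check in crowded cells. A subconfluent culture sampled after 48 hours (low density) and a culture sampled after 3 to 5 days (high density) of the same genotype were hybridized together on a 2-colour Agilent array, so the density comparison also holds the time in culture. Each genotype had 2 arrays with exchanged Cy3 and Cy5 dyes. These were counted as 1 replicate, since the labels describe a dye swap and do not name separate cultures, embryos or RNA extracts. Differences within a genotype or a density therefore have no replicate check and no test, and the spread between arrays or dyes covers technical error only.

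D-type cyclins bind Cdk4 and Cdk6 when growth factors are present, and the complexes phosphorylate the retinoblastoma protein. This releases E2F factors, which switch on the genes of DNA synthesis, among them those of the E-type cyclins. Cyclin E then activates Cdk2, after Cdc25a has removed inhibitory phosphates from the kinase. Fibroblasts in culture are known to leave the cycle in G1 when they become crowded.

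Not all probes of the targeted gene followed its label. Of 4 Lats2 probes, 3 were brighter in the cells labelled KO, by 1.19, 1.39 and 1.38 on the log2 scale at low density and by 0.91, 1.34 and 1.50 at high density. These 3 lie close together, within chr14:56644080-56645305, minus strand. The remaining probe, annotated upstream of them at chr14:56676512-56676571, was dimmer in KO, with log2 differences of -0.63 in sparse and -1.26 in dense cells. Which exons the allele lacks is not given in the sources used here, so these probes do not settle the genotype. The study reports the knockout in its MEFs from a western blot of Lats2 protein, which was not analysed here. KO and WT stand for the labels throughout. Both WT arrays were on 1 slide and the KO arrays on 2 other slides, so slide and genotype cannot be told apart. All 8 fibroblast markers were well above background in all 4 cultures, in both dyes. Of markers of other cells, 2 to 3 of 7 for macrophages, 0 to 1 of 6 for endothelium, 1 to 2 of 7 for epithelium, 1 of 6 for skeletal muscle (Acta1) and 2 of 5 for neural cells (Nes and Tubb3) were so in a culture. Cd68, Cd14 and Krt14 were well above background in every culture and Csf1r in all but dense WT cells. Kdr and Krt18 were so only in sparse WT cells. Ptprc, Emr1, Aif1 and Itgam of the macrophage list were not well above background in any culture. Neither were Pecam1, Cdh5, Tek, Tie1 and Cldn5 (endothelium) nor Cdh1, Tacstd1, Krt8, Krt5 and Rbm35a (epithelium). The same held for Myod1, Myog, Des, Myf5 and Ckm (muscle) and for Sox2, Gfap and Dcx (neural). Summed signal of the 5 neural markers lay between 10732 and 10948 in WT at low density, 2695 and 2750 in WT at high density, 1212 and 1288 in KO at low density and 716 and 876 in KO at high density. Of these 5 only Nes and Tubb3 were well above background. Nes was lower in KO by -6.20 at low and -3.76 at high density. In KO the density differences of Nes and Tubb3 had opposite signs, with Tubb3 at -1.07. The order of the cultures in that sum is the order of Ccne2 below, and also that of Cdk4, whose KO cultures overlapped. The 7 macrophage markers, most of them not well above background, had it too, with 1011 to 1042, 837 to 896, 615 to 731 and 573 to 685, though both KO ranges overlapped. Of these Cd14 was lower in KO by -1.79 at low and -1.58 at high density. Of the 8 fibroblast markers only Pdgfra (4.46) was at least 2-fold different between genotypes at low density, higher in KO. At high density Pdgfra (3.10) and Thy1 (1.39) were higher in KO and S100a4 lower (-1.29). With density 3 of the 8 were at least 2-fold higher in dense WT cells, led by Col3a1 (4.14), and 1 lower (Thy1, -1.18). In dense KO cells 4 were higher, led by Col3a1 (3.44), and 1 lower (S100a4, -2.46). The muscle markers, of which only Acta1 was well above background, summed to 8832 to 9010 in WT and 8176 to 8762 in KO at low density. At high density they summed to 2186 to 2357 in WT and 4191 to 4277 in KO. Acta1 was lower in dense cells by -2.14 in WT and -1.06 in KO, and the E-type cyclins and Cdc25a were lower there too. The part of these lists in the differences below was not tested.

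RefSeq promoter sequences (build GRCm38.p6) were given for 6 of the 9 genes, in 7 entries. They are shown for 2 kinases and for 2 of the genes that were lower in dense cells together, because they show where letters bound by E2F or by MYC family factors lie. The window ran 250 bases up to the annotated start and was searched on both strands for the E2F motif (TTTCCCGC, TTTGGCGC, TTTCGCGC or TTTGCCGC, capitals in Cdc25a and Cdk2) and the E-box (CACGTG, capitals in Cdk4).
Cdc25a, chr9:109875329-109875578, plus strand: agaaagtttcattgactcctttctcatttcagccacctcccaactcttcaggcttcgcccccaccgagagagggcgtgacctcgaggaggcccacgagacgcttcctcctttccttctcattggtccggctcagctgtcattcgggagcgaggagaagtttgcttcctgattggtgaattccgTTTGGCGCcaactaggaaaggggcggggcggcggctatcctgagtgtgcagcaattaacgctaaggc
Cdk2, chr10:128705052-128705301, minus strand: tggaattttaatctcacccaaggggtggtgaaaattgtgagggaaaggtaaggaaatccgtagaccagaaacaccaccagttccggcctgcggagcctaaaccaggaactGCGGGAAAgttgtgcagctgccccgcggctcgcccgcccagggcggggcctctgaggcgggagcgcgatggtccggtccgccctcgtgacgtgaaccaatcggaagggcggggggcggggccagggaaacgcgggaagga
Ccne1, chr7:38107491-38107740, minus strand, with no match: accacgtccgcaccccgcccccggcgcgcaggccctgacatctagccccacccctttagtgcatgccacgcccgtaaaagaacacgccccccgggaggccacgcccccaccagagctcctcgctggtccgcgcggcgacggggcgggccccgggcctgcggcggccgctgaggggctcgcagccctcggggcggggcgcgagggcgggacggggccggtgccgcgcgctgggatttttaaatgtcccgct
Cdk4, chr10:127063285-127063534, plus strand: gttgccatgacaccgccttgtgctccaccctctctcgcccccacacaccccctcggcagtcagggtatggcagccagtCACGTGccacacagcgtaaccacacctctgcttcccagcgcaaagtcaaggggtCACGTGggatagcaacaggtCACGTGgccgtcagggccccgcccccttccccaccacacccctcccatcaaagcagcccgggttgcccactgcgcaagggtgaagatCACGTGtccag
The E2F motif of Cdc25a began 67 bases before the start and that of Cdk2, in the reverse orientation, 140 bases before it. The motif was present in 1.86% of all 32851 promoter windows of this length. Cdk4 held 4 E-boxes, which began 172, 118, 98 and 11 bases before the start, and Cdk6 held 1, 220 bases before it. An E-box was present in 6.02% of windows. The TEAD motif GGAATG, bound by the partners of YAP and TAZ, occurred once among the members and in 12.6% of all windows. That match lay in reverse orientation 17 bases before the start in 1 Ccnd3 entry, and the other Ccnd3 entry had none. The AP-1 motif TGACTCA and the CRE TGACGTCA, present in 4.46% and 1.55% of windows, had no match in the members. A match is a run of letters and does not show binding.

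The E-type cyclins and Cdc25a were lower in the dense cultures of both genotypes, and the E-type cyclins were also lower in KO than in WT. Ccne1 (A_51_P408946, annotated at chr7:37806678-37806701, minus strand, build mm8) read 13.44 and 13.37 in WT at low density, in arrays 1 and 2, as log2 of the normalized signal. It read 11.67 and 11.65 in WT at high density, 11.92 and 12.13 in KO at low density, and 10.87 and 11.12 in KO at high density. None of these 4 pairs of values overlapped, and sparse WT cells stood highest and dense KO cells lowest. The density difference (high minus low) was -1.78 and -1.72 in WT, a mean of -1.75 or 3.35-fold lower. In KO it was -1.06 and -1.01, a mean of -1.03 or 2.04-fold lower. The second Ccne1 probe, annotated at the same position, gave means of -1.79 in WT and -1.14 in KO.

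Ccne2, the second E-type cyclin, showed the widest range of the 9 genes over the 4 cultures, 3.09 on the log2 scale. Its brightest probe (A_52_P58560, chr4:11130171-11130230, plus strand) read 9.57 and 9.87 in WT at low density and 7.72 and 7.86 in WT at high density. In KO it read 7.40 and 7.72 at low density and 6.41 and 6.85 at high density. Sparse KO cells thus read no higher than dense WT cells, with KO array 2 level with WT array 1. The density difference was -1.85 and -2.01 in WT (mean -1.93, 3.81-fold lower) and -0.99 and -0.87 in KO (mean -0.93, 1.90-fold lower, and -1.82 with Agilent processed signals). The other Ccne2 probe gave means of -1.74 in WT and -0.78 in KO.

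Cdc25a (A_51_P519319, chr9:109749922-109749984, plus strand) read 9.09 and 9.14 in WT at low density, 8.09 and 8.20 in WT at high density, 8.65 and 8.71 in KO at low density, and 7.87 and 7.68 in KO at high density. The 4 cultures again did not overlap, with both sparse cultures above both dense ones. The density difference was nearly equal in both genotypes, with means of -0.97 in WT (-1.0 and -0.93) and -0.91 in KO (-0.78 and -1.04). Both were just short of 2-fold, and past it with Agilent processed signals (-1.28 and -1.22). The second Cdc25a probe gave -0.75 in WT and -0.60 in KO.

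**Figure D1:**
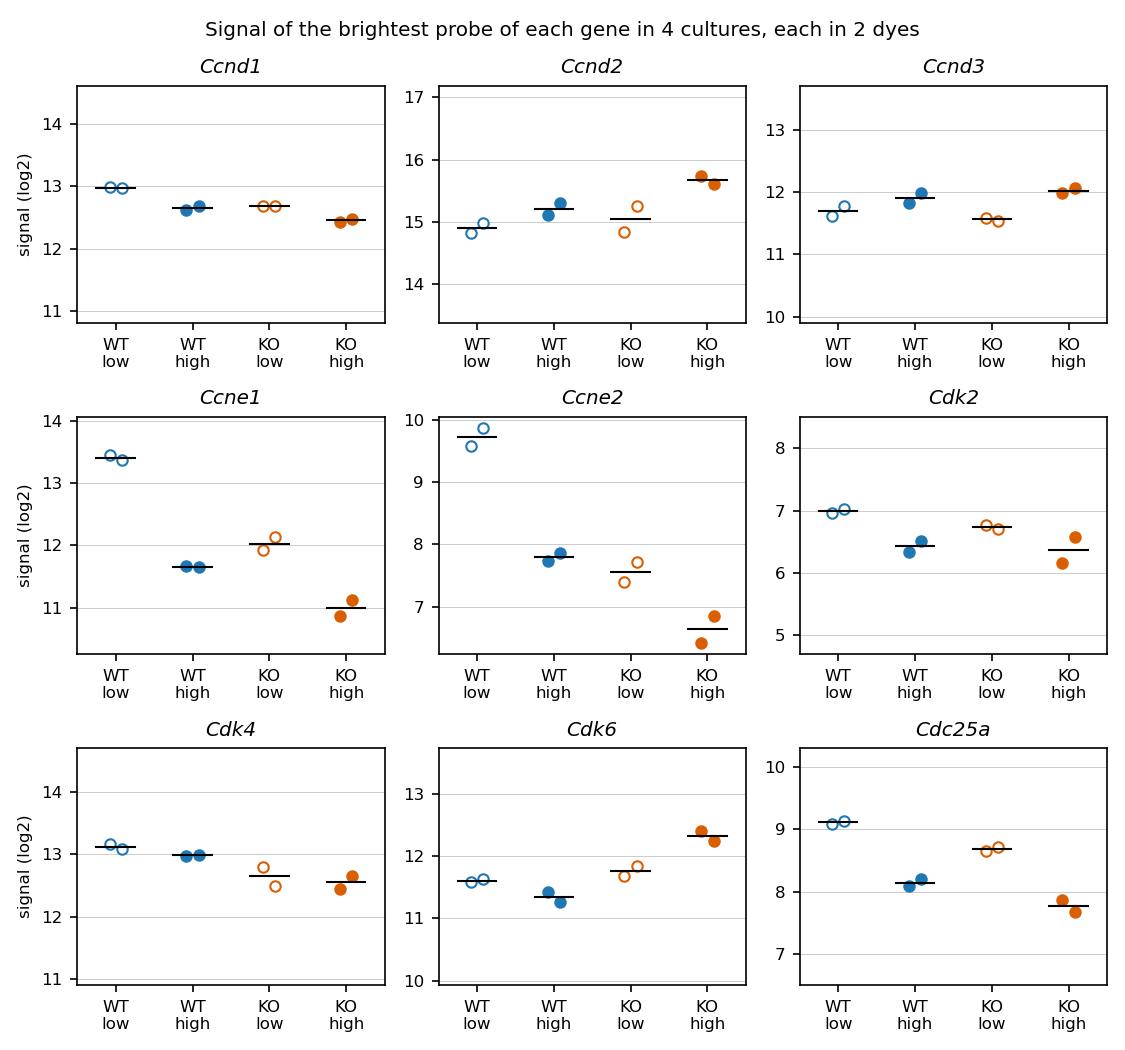
Normalized signal (log2, vertical axis) of the brightest probe of each gene in the 4 cultures. Each point is 1 dye (array), the black line is the mean of both, blue is WT, orange is KO, open points are low density and filled points high density, and every panel spans the same number of log2 units. Ccne1 and Ccne2 are highest in sparse WT cells (means 13.40 and 9.72) and lowest in dense KO cells (10.99 and 6.63), while Ccnd2 and Cdk6 are highest in dense KO cells (15.67 and 12.32).

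The D-type cyclins, which answer to growth factors, differed by at most 1.58-fold with density, and not all in 1 direction. Ccnd1 (A_51_P262766, chr7:144739658-144739717, minus strand), printed in 10 spots, read 12.98 and 12.96 in WT at low density and 12.63 and 12.68 in WT at high density. In KO it read 12.68 and 12.68 at low density and 12.43 and 12.48 at high density. Its log2 ratio had an SD of 0.02 to 0.05 over the spots of an array. Ccnd1 was lower in dense cells by -0.32 in WT (-0.36 and -0.28) and -0.23 in KO (-0.25 and -0.20), and sparse KO and dense WT cells overlapped.

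Ccnd2 was higher in dense cells with each of its 3 probes, though in KO with only 1 of 3 after median centring in place of loess. The brightest (A_52_P514391, chr6:127095295-127095354, minus strand) read 14.82 and 14.98 in WT at low density, 15.11 and 15.31 in WT at high density, 14.83 and 15.25 in KO at low density, and 15.74 and 15.61 in KO at high density. Dense KO cells stood above the other cultures, whose neighbours in the order overlapped in part. The mean density difference was 0.31 in WT and 0.63 in KO (0.90 and 0.36), and the other probes, both annotated further upstream on that strand, gave 0.39 and 0.34 in WT and 0.66 and 0.58 in KO. With median centring the brightest probe gave 0.03 in WT and -0.05 in KO. That setting moved the median of all genes from 0.06 to -0.05 in WT and from 0.06 to -0.08 in KO, and relative to it the KO value was 0.03. Ccnd3 (A_51_P238448, chr17:47062509-47062568, plus strand) read 11.61 and 11.77 in WT at low density, 11.83 and 11.98 in WT at high density, 11.58 and 11.53 in KO at low density, and 11.98 and 12.06 in KO at high density. Its density difference was 0.21 in WT, which was -0.03 with median centring, and 0.46 in KO.

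Of the kinases, Cdk4, the partner of the D-type cyclins, barely differed with density. Cdk4 (A_51_P437027, chr10:126467860-126467919, plus strand) read 13.17 and 13.08 in WT at low density, 12.98 and 12.99 in WT at high density, 12.79 and 12.50 in KO at low density, and 12.44 and 12.66 in KO at high density. The density difference was -0.14 in WT, and in KO the arrays had opposite signs (-0.35 and 0.16). Cdk2, the partner of cyclin E, was near background. Its brightest probe (A_52_P651298, chr10:128106710-128106769, minus strand) read 6.96 and 7.04 in WT at low density, 6.34 and 6.52 in WT at high density (well above background on 1 array of 2), 6.77 and 6.70 in KO at low density, and 6.17 and 6.57 in KO at high density. Both dense cultures lay below both sparse ones, with means of -0.57 in WT and -0.37 in KO. With Agilent processed signals these were -2.01 and -1.09, both then past 2-fold. The second Cdk2 probe gave -0.30 in WT, where dense cells were not well above background, and -0.20 in KO.

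The probes of Cdk6, the other partner of the D-type cyclins, differed among themselves. The brightest (A_51_P489779, chr5:3535293-3535352, plus strand), annotated from a cDNA clone, read 11.58 and 11.63 in WT at low density, 11.43 and 11.26 in WT at high density, 11.68 and 11.84 in KO at low density, and 12.41 and 12.24 in KO at high density. It was lower in dense WT cells (-0.15 and -0.37) and higher in dense KO cells (0.73 and 0.40), so that no 2 cultures overlapped. A second probe (A_52_P417489), annotated to the RefSeq transcript over chr5:3479226-3521510, was lower in dense cells of both genotypes, by -0.66 in WT and -0.48 in KO. The last probe (A_51_P388310, chr5:3527675-3527734), also annotated to the RefSeq transcript, was well above background in KO but only in 1 of 4 WT channels, and gave -0.23 in KO. The mean over its tested probes moved the KO density difference of Cdk6 from 0.56 to -0.05.

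By the rule used here a gene was called when its brightest probe differed by at least 2-fold and both arrays had the same sign. In WT 2 of the 9 genes were called, Ccne1 and Ccne2, both lower, where 15.5% of the 14874 genes measured were called in either direction and 6.09% as lower. In KO 1 of 9 was called, Ccne1, also lower, against 11.0% of 15434 genes in either direction and 3.87% as lower. The median over the 9 genes was -0.32 in WT and -0.23 in KO, beside 0.06 in WT and 0.06 in KO over all genes. The SD of an array's deviation from the mean of its pair, over all probes measured, was 0.10 in WT and 0.14 in KO. Of all genes called, 60.7% in WT and 64.8% in KO were higher in dense cells, and 47.0% and 42.8% with median centring.

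**Figure D2:**
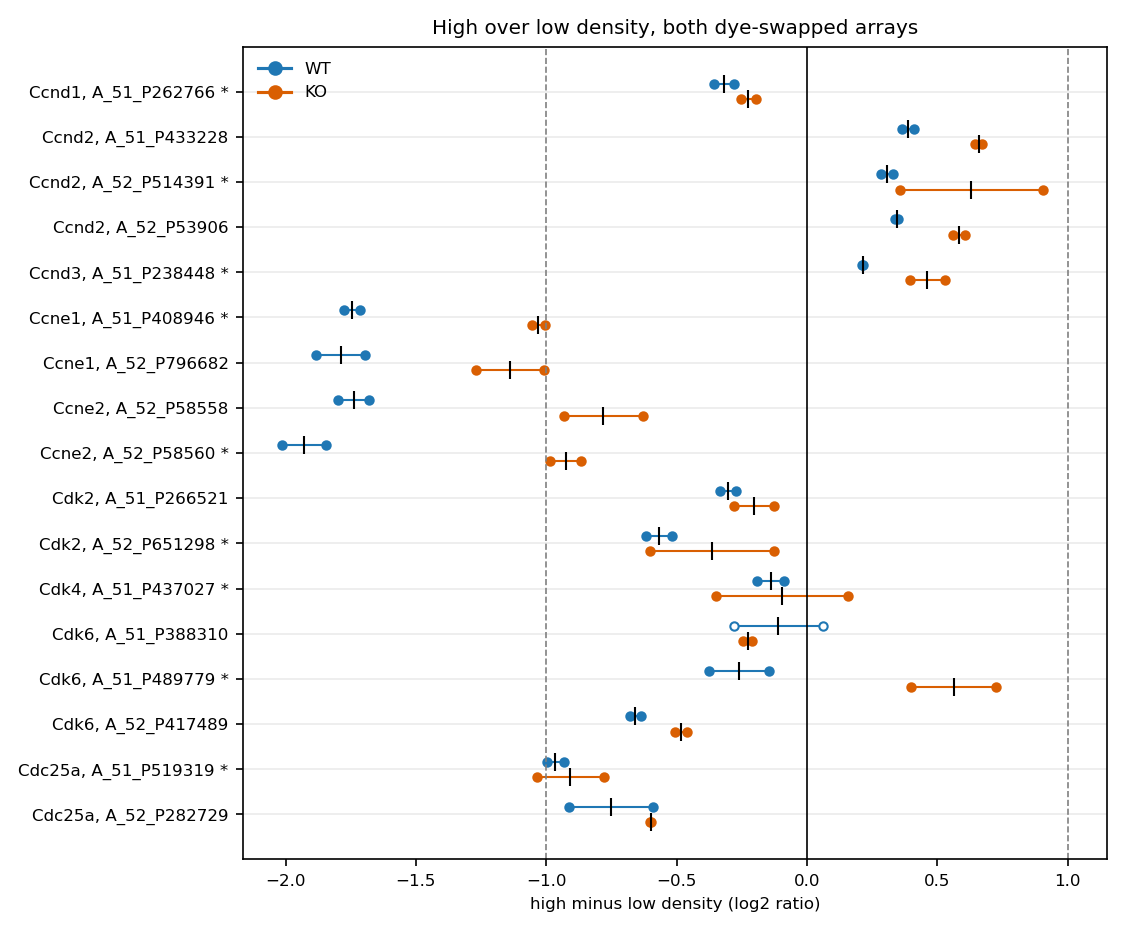
Density difference (high minus low density, log2 ratio, horizontal axis) of each of the 17 probes. Points are the 2 dye-swapped arrays joined by a line, the black tick is their mean, blue is WT, orange is KO, an open point marks a probe that did not pass the filter on dim probes, an asterisk marks the brightest probe of a gene and dashed lines a 2-fold difference. The Ccne1 and Ccne2 probes lie between -1.68 and -2.01 in WT and between -0.63 and -1.27 in KO.

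Only a density difference common to both genotypes could be tested, over the WT and KO means (n = 2) with limma's moderated test adjusted by Benjamini-Hochberg over 21546 probes. The error of this test came from the spread between the genotypes, not from replicate cultures, so it includes any genotype difference in the density effect. No member passed, and neither did any of the 14172 genes (0.0%), while 6391 probes had an unadjusted p under 0.05. Cdc25a had a common difference of -0.94 (SE 0.16, adjusted p = 0.078), Ccne1 of -1.39 (SE 0.24, adjusted p = 0.078) and Ccne2 of -1.43 (SE 0.30, adjusted p = 0.089), each with the same sign on 4 of 4 arrays. Cdk2 (-0.47, adjusted p = 0.17) was the remaining member whose brightest probe had an unadjusted p under 0.05, of 0.049. Of the other probes, A_52_P417489 of Cdk6 gave -0.57 (adjusted p = 0.13) and A_51_P433228 of Ccnd2 gave 0.52 (adjusted p = 0.15). Adjusted p-values of the other members were 0.18 for Ccnd2, 0.27 for Ccnd3, 0.32 for Ccnd1, 0.65 for Cdk4 and 0.73 for Cdk6. The methods' t-test on the same values called 0 probes after adjustment and 2379 before it. Other settings of limma called 0 to 362 probes, and no member under any of them.

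The density difference was higher (less negative or more positive) in KO than in WT for all 9 genes with loess, for 8 with Agilent processed signals and for 6 with median centring. The median was 0.25, beside 0.02 over all genes, and the arrays of Cdk4 and Cdc25a had opposite signs. For Ccne2 it differed by 0.86 and 1.15 between the arrays of the same dye, a mean of 1.0, and this was the only member at the 2-fold rule, which 9.53% of 14172 genes met in either direction and 4.56% as higher in KO. With Agilent processed signals it was 0.67. Cdk6 followed with 0.82 and Ccne1 with 0.72. The values for Ccnd1 (0.09), Cdc25a (0.06) and Cdk4 (0.04) were below the SD between dyes of 0.13, and with median centring those of Ccnd1 (-0.07), Ccnd2 (-0.08) and Cdk4 (-0.12) were below 0.

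The genotype difference (KO minus WT, within the same dye) was largest for the E-type cyclins in sparse cells and for Ccne2 and Cdk6 in dense cells, by the brightest probes. At low density Ccne2 was lower in KO by -2.17 and -2.15 in the 2 dyes, 4.47-fold, and Ccne1 by -1.52 and -1.24, 2.60-fold. The other probes of these genes gave -1.86 for Ccne2 and -0.94 for Ccne1. These 2 of 9 genes were called, both lower, beside 15.7% of 15256 genes in either direction and 8.34% as lower. Cdk4 (-0.48), Cdc25a (-0.43), Ccnd1 (-0.29) and Cdk2 (-0.26) were lower in KO in both dyes without reaching 2-fold, though the second Cdk2 probe gave 0.15. Values of Ccnd2 (0.14), Ccnd3 (-0.13, and 0.14 without scaling between arrays) and Cdk6 (0.16) were close to the SD between dyes. The other Ccnd2 probes gave -0.06 and -0.09. Those of Cdk6 gave -0.15 and, for the probe dim in WT, 0.84 and 1.82 in the 2 dyes (mean 1.33, past 2-fold). That probe passed the filter on dim probes only through KO, where it was brighter. The median of the 9 genes was -0.29, and 0.03 over all genes.

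At high density Ccne2 was lower in KO by -1.31 and -1.0, 2.23-fold (mean -1.16, and -0.93 without scaling between arrays), and was the only member called, beside 14.5% of 15620 genes in either direction and 7.73% as lower. Ccne1 was lower by -0.80 and -0.53, a mean of -0.66. The other probes of these genes gave -0.90 for Ccne2 and -0.30 for Ccne1, neither at 2-fold. Cdk6 was higher in KO by 0.98 in each dye with its brightest probe, 1.97-fold. Without scaling between arrays it was 1.24 and was then the only member called, in place of Ccne2. Its second probe gave 0.03. Its last gave 0.57 and 1.86, but passed the filter on dim probes only through KO, as dense WT cells were not well above background there. Ccnd2 was higher by 0.47, with 0.21 and 0.15 from its other probes, and Cdk4 was lower by -0.43 and Cdc25a by -0.37. Ccnd3 (0.12) and Cdk2 (-0.06) were within the SD between dyes. Ccnd1 was lower by -0.20 in each dye, but higher by 0.05 without scaling between arrays. That setting raised the median of all genes from 0.03 to 0.27 at either density, and the share of called genes that were higher in KO from 46.8% to 69.1% at low and from 46.7% to 66.6% at high density. The SD between dyes over all probes was 0.11 at low and 0.15 at high density.

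**Figure D3:**
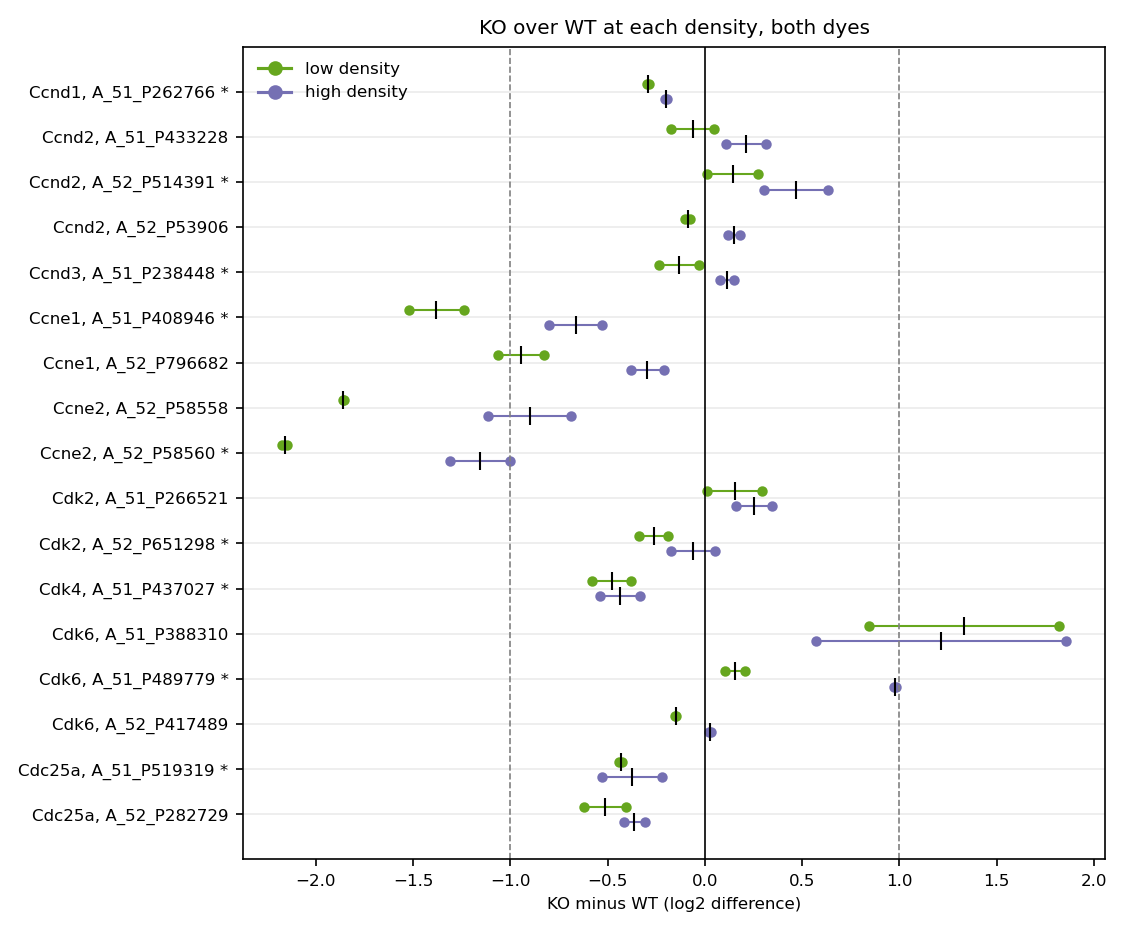
Genotype difference (KO minus WT, log2, horizontal axis) of each of the 17 probes at low density (green) and high density (purple). Points are the 2 dyes joined by a line, the black tick is their mean, an asterisk marks the brightest probe of a gene and dashed lines a 2-fold difference. All Ccne1 and Ccne2 probes lie left of 0 at both densities, and the 3 Cdk6 probes spread from -0.15 to 1.33 at low density.

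Genes that E2F factors switch on at the G1 to S transition were lower in dense cells with the E-type cyclins. In WT 17 of 17 measured genes were at least 2-fold lower (median -1.51), led by thymidine kinase Tk1 (-1.96), the replication factor Cdc45 (-1.95, Cdc45l on the array) and the ribonucleotide reductase subunits Rrm2 (-1.89) and Rrm1 (-1.87). In KO 5 of 17 were (median -0.73), or 8 with median centring (median -1.10), led by the licensing factor Cdt1 (-1.86), Rrm2 (-1.48) and the helicase subunits Mcm2 (-1.40) and Mcm3 (-1.27). Over all genes 6.09% were called lower with density in WT and 3.87% in KO. Between genotypes 8.34% of all genes were called lower in KO at low and 7.73% at high density. Of the 17 genes, 11 were at least 2-fold lower in KO than in WT at low density and 1 was higher (median -1.18). Without scaling between arrays these were 5 and 1. At high density 2 were lower (Cdt1, -1.43, and Mcm2, -1.15) and 1 was higher (Rrm2, 1.65). As fewer cycling cells and less RNA per cell cannot be told apart in such cultures, these values give no share of cells.

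Cyclins and kinases of S phase and mitosis differed with density chiefly in WT, where 8 of 12 were at least 2-fold lower (median -1.36), among them Cdk1 (-1.81, Cdc2a on the array), Aurka (-1.67), Aurkb (-1.62) and cyclin A2, Ccna2 (-1.60, also in the list above). In KO 0 of 12 were called (median -0.13). Of all genes 6.09% were called lower in WT and 3.87% in KO. The difference between the genotypes' density effects itself was at least 2-fold for 7 of 12 (median 1.16), with Ccna2 at 1.57 and Aurkb at 1.54. This was so, as higher in KO, for 4.56% of all genes. At low density 5 of 12 were at least 2-fold lower in KO, such as Ccnf (-1.37) and Cdk1 (-1.21), beside 8.34% of all genes. Without scaling between arrays 1 of the 12 was. At high density 0 of 12 were called (median 0.19).

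Among the 7 CDK inhibitors, 2 were at least 2-fold higher in dense WT cells. Of all genes 15.5% were called there, and 60.7% of those called were higher. Cdkn1c, which encodes p57, was 3.34 higher on the log2 scale and Cdkn2a, which encodes p16 and p19ARF, 1.64 higher. In KO 0 of 7 were called (median 0.56, beside 0.47 in WT), where 11.0% of all genes were, and 2 of 7 with Agilent processed signals. The density effect was at least 2-fold higher in KO than in WT for 1 of 7 (Cdkn2d, 1.12). It was at least 2-fold lower in KO for 3, Cdkn1c (-2.62), Cdkn2a (-1.13) and Cdkn1a (-1.01). Of all genes 9.53% were called for this difference. With median centring the counts were 0 and 3. At high density Cdkn1c was lower in KO by -3.84 and -4.93 and Cdkn2a by -1.32, while Cdkn2b, which encodes the Cdk4 and Cdk6 inhibitor p15, was higher by 1.86 and Cdkn2d, which encodes p19INK4d, by 1.22. At low density Cdkn2b was higher in KO by 2.23 and Cdkn1c lower by -1.76, with its dyes apart (-1.0 and -2.52). Between genotypes 15.7% of all genes were called at low and 14.5% at high density.

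Of the 13 pocket proteins and E2F factors, E2f7, a repressor of E2F targets (-2.12), and Rbl1, which encodes p107 (-1.66), were at least 2-fold lower in dense WT cells. In KO 0 of 13 were called, or 2 with median centring. Of all genes 15.5% were called in WT, 6.09% as lower, and 11.0% in KO. At low density E2f2 (-1.85), Rbl1 (-1.57) and E2f8 (-1.02) were lower in KO and E2f6 higher (1.70), and at high density E2f6 (1.44) and Rb1 (1.06) were higher. Between genotypes 15.7% of all genes were called at low and 14.5% at high density. Of 15 genes of CDK activation and cyclin turnover, the CDK-binding Cables1 was higher in dense cells, by 4.91 in WT and 1.13 in KO. Cks2 (-1.17), Cks1b (-1.12) and Skp2 (-1.02), which act in p27 turnover or bind CDKs, were lower in dense WT cells. Skp2 was lower in KO at low density (-1.66) and Cables1 at high density (-3.60), and no other gene of these 15 was called between genotypes.

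Among 12 mitogenic inputs to the D-type cyclins, 3 were at least 2-fold lower in dense WT cells, the proto-oncogenes Mycn (-2.33), Myc (-1.10) and Junb (-1.0). In KO Fosl1 (-2.31), Myc (-1.66) and Junb (-1.07) were lower and Egr1 higher (1.76). At low density 4 were lower in KO, such as Mycn (-2.37) and Egr1 (-2.15), and 3 higher, such as Tcf7l2 (1.52), a partner of beta-catenin. At high density 5 were lower, such as Fosl1 (-2.11), and 2 higher, such as Wwtr1, which encodes TAZ (1.33). Of all genes 15.5% were called with density in WT and 11.0% in KO. Between genotypes 15.7% of them were called at low and 14.5% at high density.

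**Figure D4:**
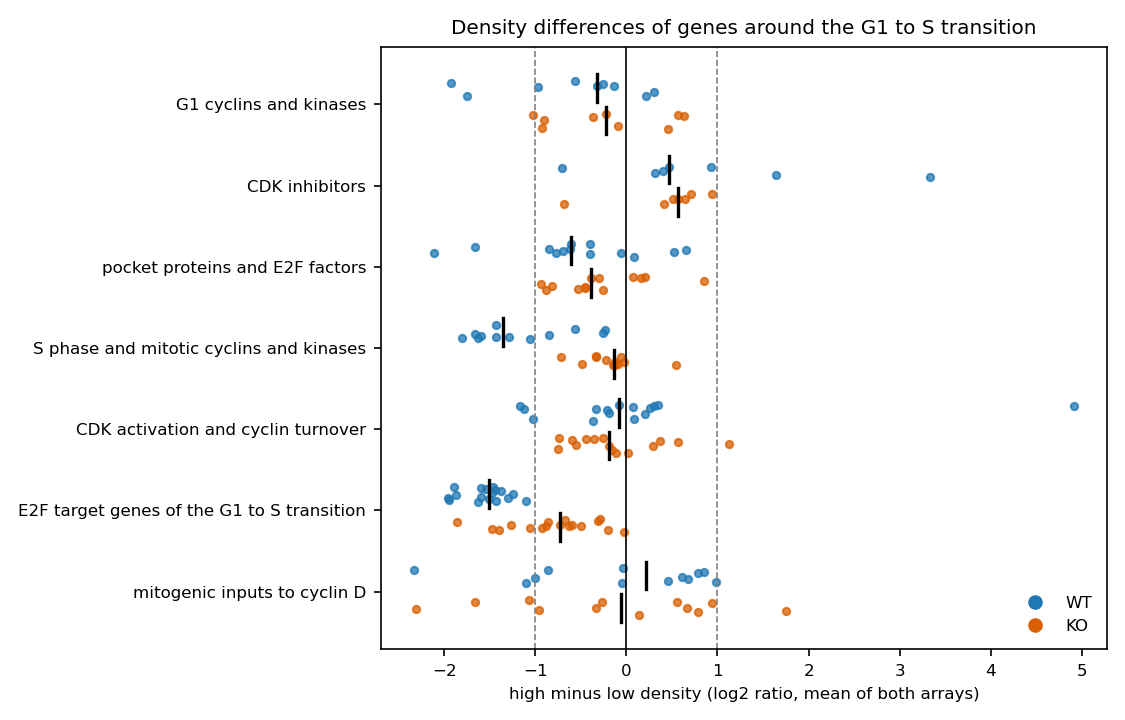
Density difference (high minus low density, log2 ratio, mean of both arrays, horizontal axis) of the 9 genes and of 6 lists of genes around the G1 to S transition. Each point is 1 gene, blue is WT, orange is KO, black bars are list medians and dashed lines a 2-fold difference. All 17 E2F target genes lie left of -1 in WT, where their median is -1.51, and their median is -0.73 in KO.

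For 3 members the genes with the closest levels over the 4 cultures were found, as the smallest root mean square difference of centred log2 levels among the 19501 probes that were well above background throughout the 8 channels. Closest to Ccne1 were Gins1 (0.076), Chaf1b (0.081) and Mcm3 (0.081). For Ccnd1 they were Mtx1, Snx27 and Smarca4 (0.013, 0.015 and 0.019), and for Ccnd2 Sgcb, A730008L03Rik and BB366565 (0.013, 0.018 and 0.022). Among so many probes and 4 points, small differences of this kind are frequent for a gene that varies little.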

How the data were processed

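Groups, densities and dyes were taken from the labels. The genotype field (Lats2) was used where source names write LAT2. Per the file headers, the authors extracted 4 two-channel scans with Agilent Feature Extraction 10.5.1.1. The deposited files hold raw spot intensity with local background, flags, software-processed intensity, and a log10 ratio, which the deposited series matrix repeats as high over low density. Here raw intensity was corrected by normexp (offset 50) and loess in R 4.3.3 with limma 3.58.1 (with statmod 1.5.0 and the data.table package, version 1.17.8), and control and outlier-flagged spots were left out. Spots of a probe were averaged. The offset shrinks ratios of dim probes. Genotypes were compared on single channels after Aquantile scaling, within dye.

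To enter a density comparison, a probe had to be well above background on each array of the pair in the sparse or the dense culture. For a genotype comparison it had to be so with both dyes, in KO or in WT cells. A call was a mean log2 difference of at least 1 with equal signs. A gene was read by its brightest probe. For a member's side not well above background its own signal was used, which lay above the lowest signal among probes well above background. Per channel, 52.8% to 67.7% of features were well above background, and the number of arrays limits the precision. Named are all members, Lats2, list genes past the size rule (up to 4 per list and contrast) and the 3 nearest genes. Members and lists were chosen with earlier results of these data known. Probe positions are the array annotation's (mm8). The size rule and limma's test were tested on simulated data. For limma's test these held larger differences than any member's and less spread between genotypes than all probes had. They therefore do not show how that test performs on these data. For the size rule the simulated differences lay well past its cut, and the only spread was that between dyes. That simulation therefore does not cover values near the cut or spread between cultures. Python 3.11.15 with numpy 2.4.6, pandas 2.3.3, scipy 1.17.1 and matplotlib 3.10.9 was used.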

Additional observations from a re-analysis of the deposited data

Results flagged for a closer look

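The brightest Cdk6 probe had opposite density differences in the 2 genotypes, negative on both WT arrays and positive on both KO arrays, with a KO minus WT difference of 0.82. This difference was not tested, since each genotype had 1 replicate, and the second Cdk6 probe was negative on all 4 arrays.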

How the results depend on the processing

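No paired analysis was possible because the replicate numbers mark the dye orientation and each genotype has 1 replicate. Of 45 values (9 genes in 5 comparisons), 33 kept their sign under every alternative, among them all 7 called values, of which 5 also stayed past 2-fold under every one. Calls among the 9 genes were 2 for density in WT, and 4 with Agilent processed signals, the series matrix or a 1.4-fold threshold. For density in KO they were 1, then 4 with processed signals or the matrix, 5 at 1.4-fold, 2 without background correction, and 1 to 2 without either KO array (2 without KO replicate 1). For the difference of density effects they were 1, but 0 with processed signals, the matrix, no background correction or the mean of all probes, 3 at 1.4-fold, and 0 to 1 without either replicate number (0 without replicate 2). Between genotypes at high density they were 1, and 3 at 1.4-fold. Without scaling between arrays the count was again 1, but the call was Cdk6 (1.24) and not Ccne2 (-0.93). The cause of these moves was not tested, apart from the threshold itself. The common test called 0 probes, but 3 with median centring, 362 without background correction, 287 with processed signals, 302 with the matrix, 195 with probes measured in every channel, 133 with an intensity trend and 150 without KO replicate 1, with no member among them. Cdk2 was near background, and its WT density difference was -2.01 with processed signals, against -0.57. Each of these comparisons rests on 1 culture per genotype and density.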
